A study of Mus musculus with 8 samples.

Results

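Pol II pSer5 peaks that lay inside *Plxna4*, *Flt1*, *Lyn*, *Tmeff2*, *Tspan9* and *Galnt18* were examined in lung smooth muscle cells (SMCs) with and without TET3. The study lists genes with spurious transcription after loss of *Tet3*, and these 6 are genes of that list whose peak lay more than 5000 nt from the annotated start of the gene and had a higher mean in the mutant. Each gene had 1 peak, so that 6 of the 1761 peaks of the series were described, 6 of its 230 intragenic peaks. They were thus chosen by the 4 library values of their peak and by its distance from the start, and the genotype difference is given here as a description, without a test. The peaks are named by their genes: *Galnt18* belongs to a family of Golgi enzymes rather than to a signalling pathway, and 3 of the 6 peaks lay at or next to an annotated transcript start of another RNA or isoform, as given with their positions.

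The cells were sorted by FACS as tdTomato-labelled SMCs from the lungs of C57BL/6 mice, after removal of CD45- and Ter-119-positive cells. The mutant (Mut, Tet3smKO:T) carried a floxed *Tet3* gene that was deleted after tamoxifen by a Cre recombinase driven by the α-SMA promoter (α-SMA ERT2Cre2), and a tdTomato reporter. The controls (WT) lacked the floxed allele but carried the Cre and/or the reporter, and which of these the WT libraries carried is not given in the labels. There were 2 immunoprecipitated libraries per genotype. All cells had been treated for 1 h at 4 °C with 100 µmol DRB, which blocks the kinase that releases paused Pol II. The sources used here do not state whether a library came from 1 animal or from pooled animals, nor its interval after tamoxifen. The paper says that its quantitative analyses had at least 2 biological replicates, without naming these libraries. How far the spread between libraries was technical or between animals was not tested.

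Phosphorylation of serine 5 in the tail of Pol II marks polymerase that has initiated and sits near a start site. TET3 oxidizes methylated cytosine, most of it in CpG dinucleotides, to 5-hydroxymethylcytosine, which in active genes lies within the gene body. A Pol II pSer5 peak far from the start of a gene can mark initiation from inside the gene, on either strand, but also an enhancer or the start of another RNA, and ChIP–seq reads do not tell the strand of transcription. The proteins of the 6 genes act mostly at membranes. Plexin A4 is a receptor for semaphorins, FLT1 a receptor tyrosine kinase for VEGF ligands, LYN a kinase of the Src family that relays signals from surface receptors, TMEFF2 a transmembrane protein with follistatin-like and EGF-like domains, and TSPAN9 a tetraspanin, a scaffold of membrane microdomains. GALNT18 belongs to the family of GalNAc transferases that begin mucin-type O-glycosylation.

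The sequences under the peaks are shown for their CpG content, which relative to base composition was below the median of the promoter peaks of the series in all 6. They were read from the RefSeq genome of build GRCm38 on the strand of the gene, 5′ to 3′, with every CpG in capitals. The peak coordinates were taken as counting from 1, which the table does not state, so that a sequence could be shifted by 1 base. The peaks were at chr6:32511055-32511222 (*Plxna4*, minus strand), chr5:147659757-147659977 (*Flt1*, minus strand), chr4:3697832-3697983 (*Lyn*, plus strand), chr1:51136807-51136979 (*Tmeff2*, plus strand), chr6:128124266-128124489 (*Tspan9*, minus strand) and chr7:111741701-111741853 (*Galnt18*, minus strand). For *Tspan9* only the 116 bases upstream of the annotated *Tspan9* starts, chr6:128124374-128124489, are shown.
Plxna4: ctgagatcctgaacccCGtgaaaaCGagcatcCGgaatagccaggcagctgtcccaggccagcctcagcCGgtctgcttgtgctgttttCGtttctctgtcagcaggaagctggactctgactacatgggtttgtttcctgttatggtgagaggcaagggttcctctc
Flt1: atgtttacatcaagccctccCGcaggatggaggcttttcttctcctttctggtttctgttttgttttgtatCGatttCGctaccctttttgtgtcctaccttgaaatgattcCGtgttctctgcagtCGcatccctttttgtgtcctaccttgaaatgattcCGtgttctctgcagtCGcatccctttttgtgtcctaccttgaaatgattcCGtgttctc
Lyn: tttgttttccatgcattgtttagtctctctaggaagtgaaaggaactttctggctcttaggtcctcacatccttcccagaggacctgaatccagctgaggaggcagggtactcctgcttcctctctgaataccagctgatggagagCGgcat
Tmeff2: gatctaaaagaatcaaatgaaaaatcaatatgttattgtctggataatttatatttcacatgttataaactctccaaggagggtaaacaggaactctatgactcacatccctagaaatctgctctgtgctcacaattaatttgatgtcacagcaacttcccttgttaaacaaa
Tspan9: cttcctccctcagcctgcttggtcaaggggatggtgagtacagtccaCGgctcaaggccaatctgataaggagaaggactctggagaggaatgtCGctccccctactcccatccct
Galnt18: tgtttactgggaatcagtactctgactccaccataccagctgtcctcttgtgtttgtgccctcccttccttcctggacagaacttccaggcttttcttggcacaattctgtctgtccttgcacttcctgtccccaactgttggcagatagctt

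The capitals show 5 CpG in the *Plxna4* peak, 8 in *Flt1*, 1 in *Lyn*, 0 in *Tmeff2* and 0 in *Galnt18*, and the whole *Tspan9* peak held 4. Of the 8 CpG of the *Flt1* peak, 5 lay in a tandem repeat. Its unit of 50 bases, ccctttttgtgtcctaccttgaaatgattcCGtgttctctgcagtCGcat, held 2 CpG and filled the peak from base 83 to base 221 in 2.78 copies. No tandem repeat was found in the other 5 peaks, whose longest stretch present more than once was 6 to 8 bases. None of the 6 sequences had a copy elsewhere in the genome of at least 75 bases with at least 90% identity, although reads inside the *Flt1* repeat could align to more than 1 of its units.

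All 6 peaks lay inside introns. The *Plxna4* peak was 77053 nt downstream of the start of the gene by the distance in the deposited table, in intron 2 of the longest coding transcript, which has 32 exons, an intron of 19599 nt. The *Flt1* peak was 66144 nt from the start, in intron 10 (17352 nt) of a transcript of 30 exons. The *Lyn* peak was 19793 nt from the start, in intron 1 (60360 nt) of a transcript of 13 exons. All 3 were in the front part of their genes, at 17.4%, 40.2% and 17.4% of the gene length.

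The *Tspan9* peak was 19185 nt from the start, in intron 1 (109268 nt) of a transcript of 8 exons. The *Galnt18* peak was 38200 nt from the start, in intron 1 (162828 nt) of a transcript of 11 exons. These too were near the front, at 10.5% and 12.4% of the gene length. The *Tmeff2* peak differed. It was 226931 nt from the start used in the table, which is that of another *Tmeff2* transcript, and 209374 nt from the start of the coding transcript that spans it, in intron 7 (47133 nt) of a transcript of 10 exons and at 81.8% of the gene length. The genes were long, from 113499 nt (*Lyn*) to 443925 nt (*Plxna4*). The map of the genes shows the peaks against the exons.

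**Figure D1:**
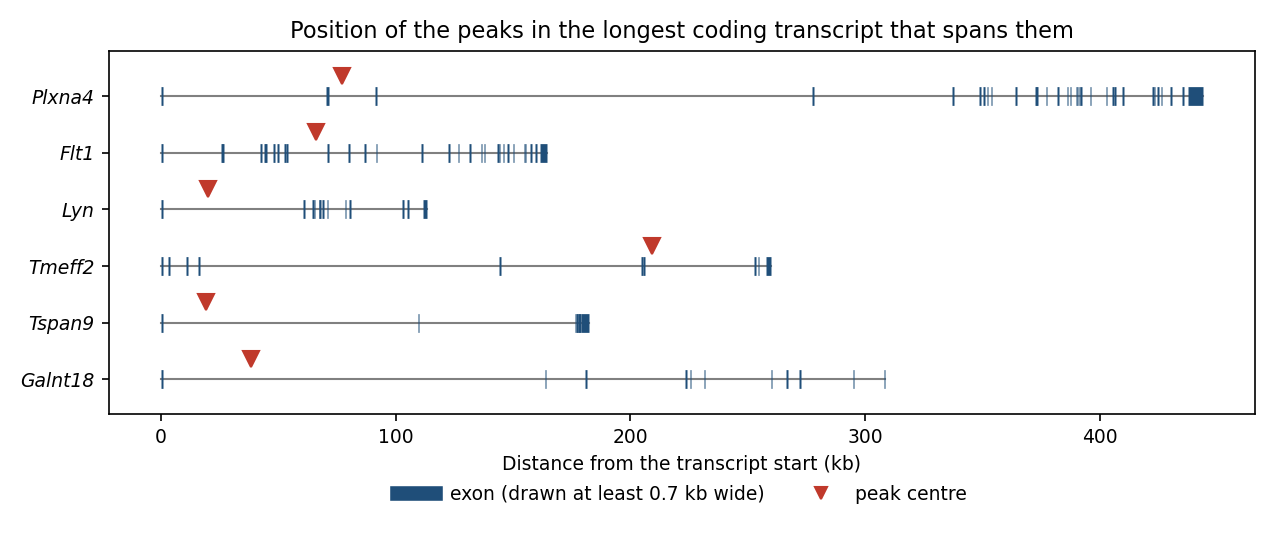
Position of each peak centre (red triangle) in the longest coding transcript that spans it; the x axis gives the distance from that transcript's start in kb, blue blocks are exons (drawn at least 0.7 kb wide) and grey lines introns. All 6 peaks lie in introns, 5 of them in the front part of the gene and that of Tmeff2 209374 nt downstream of the transcript start.

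The outermost annotated starts of the 6 genes carried no peak. The nearest peak to this start was 134557 nt away for *Flt1* and 157555 nt for *Lyn*, and from 696718 nt (*Galnt18*) to 1203934 nt (*Tmeff2*) for the other 4. The 6 genes therefore entered the series through their intragenic peaks alone. Peaks were called per library with a threshold, so a start without a peak is one where no peak was called, not one without polymerase.

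Other annotated starts lay much closer to 3 of the 6 peaks. The *Tspan9* peak contained starts of *Tspan9* itself. A curated RefSeq mRNA began 4.5 nt from its centre, at position 128124373, and a coding transcript of GENCODE began 61.5 nt from it, at position 128124316, both on the strand of the gene. The *Plxna4* peak contained the start of a long noncoding RNA on the opposite strand, *Plxna4os1*, 2.5 nt from the centre in RefSeq (position 32511141) and 65.5 nt in GENCODE (position 32511073). The starts in the *Tspan9* peak are annotated alternative starts of the gene, and those in the *Plxna4* peak belong to a separate antisense RNA. From which start the polymerase came was not tested.

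For *Flt1* the nearest start was 176 nt from the peak centre and outside the peak, that of a predicted antisense noncoding RNA, *Gm35383*, in RefSeq. GENCODE had no start nearer than 13060 nt. The *Tmeff2* peak had an antisense RNA of GENCODE, *Gm28319*, at 4329 nt, and the *Lyn* peak a GENCODE antisense lincRNA, *Gm26857*, at 8359.5 nt. The *Galnt18* peak had no annotated start nearer than that of *Galnt18* itself, 38200 nt away. A start of either annotation thus lay within 500 nt of 3 of the 6 peaks (50%), and of 98 of the 230 intragenic peaks (42.6%), so that the 6 peaks were close to the other intragenic peaks in this respect. Of the 1125 promoter peaks, those within 5000 nt of the start of their gene, 96.8% had one.

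**Figure D2:**
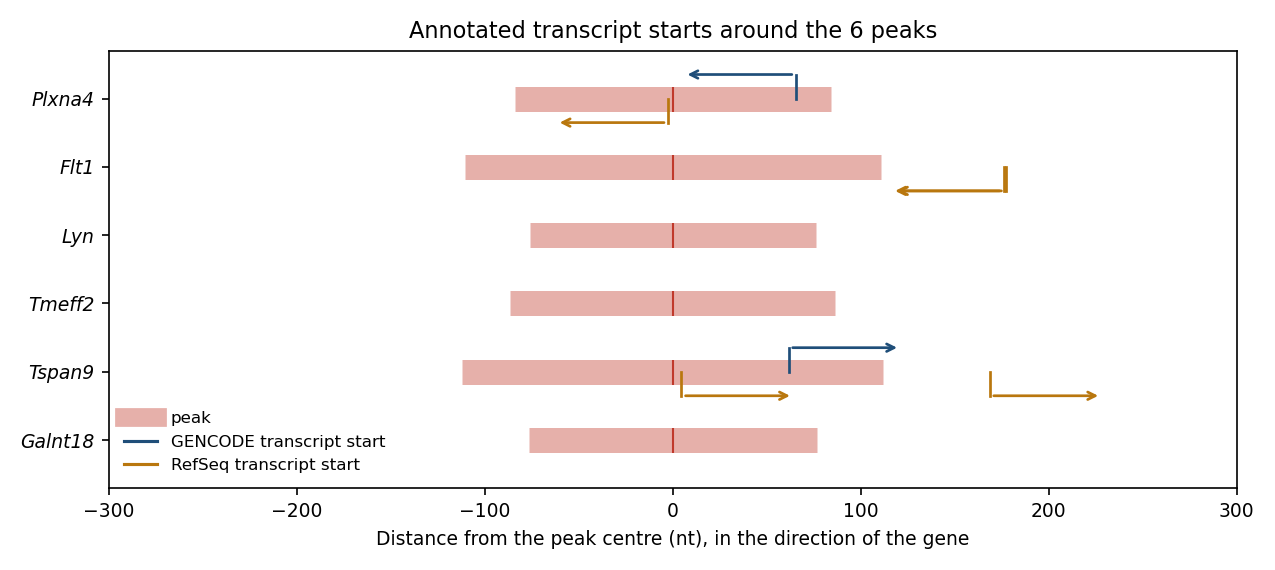
Annotated transcript starts within 300 nt of the centre of each peak; the x axis is the distance from the peak centre in nt in the direction of the gene, red bars are the peaks at their true width, and arrows are starts of GENCODE (blue) and RefSeq (orange) transcripts pointing in the direction of transcription. Starts lie inside the peaks of Plxna4 (antisense) and Tspan9 (sense) and 176 nt from the centre of that of Flt1, and none lies within 300 nt of the peaks of Lyn, Tmeff2 and Galnt18.

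The values that follow are taken as read numbers per peak that the authors had normalized and rounded. The methods describe subtraction of input before counting, but 99.7% to 100% of the values per library fell on whole counts times 1 step. On this reading, 1 read stood for 0.690 units (Mut replicate 1) to 1.25 units (WT replicate 2). The 4 libraries summed to 25673 to 27058 units over all peaks, with an estimated 21473 to 37076 reads in peaks, and their median peak had a value of 13 or 14. Most of the 6 peaks were weaker than that. The median of their means over the 4 libraries was 8.25, against 11.5 for intragenic and 13.8 for promoter peaks. The means of *Flt1* (13.25) and *Tspan9* (11.75) were above the intragenic median. These values took part in the choice, so the level of the peaks is only described. At values this low, counting error was a large part of each value. Log2 differences are Mut minus WT on the log2(value + 1) scale, which understates the change of low values, and carry the standard error (SE) of the limma fit over all 1761 peaks, with a call at an adjusted p under 0.05 made for 0% of peaks and an unadjusted p under 0.05 for 7.21%.

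*Plxna4*, the semaphorin receptor, had the largest log2 difference of the 6 on the log2(value + 1) scale, though the ratio of estimated reads was larger for *Lyn* and *Galnt18*. Its peak had values of 6 and 1 in WT replicates 1 and 2, and of 10 and 14 in Mut replicates 1 and 2. Both Mut libraries were above both WT libraries. The mean was 3.5 ± 3.54 (SD, n = 2) in WT and 12 ± 2.83 (SD, n = 2) in Mut, a log2 difference of 1.78 with an SE of 0.75. About 8 reads in WT and 26 in Mut lay behind these means, and the WT libraries alone spanned 1 to 7 reads.

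*Flt1*, the VEGF receptor, had the highest level in WT. Its values were 4 and 18 in WT and 14 and 17 in Mut. The highest value of all 4 belonged to WT replicate 2, so that the genotypes overlapped, and the difference came from the low value of WT replicate 1. The means were 11 ± 9.90 (SD, n = 2) in WT and 15.5 ± 2.12 (SD, n = 2) in Mut, a log2 difference of 0.75 with an SE of 0.64. Without WT replicate 1 the log2 difference of *Flt1* was -0.21.

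*Lyn*, the Src family kinase, had the lowest level. Its peak had values of 0 and 5 in WT and of 8 and 5 in Mut. WT replicate 2 and Mut replicate 2 were equal, so that the genotypes met at a value of 5. A count of 0 allows up to 3 reads, a value of 2.72 in WT replicate 1. The means were 2.5 ± 3.54 (SD, n = 2) and 6.5 ± 2.12 (SD, n = 2), a log2 difference of 1.58 with an SE of 1.42, the widest error of the 6. It was 0.29 without WT replicate 1.

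*Tmeff2*, the EGF-like membrane protein, had equal WT values. They were 5 and 5, against 9 and 16 in Mut. Both Mut libraries were higher, though unequal to each other. The means were 5 ± 0 (SD, n = 2) and 12.5 ± 4.95 (SD, n = 2), a log2 difference of 1.12 with an SE of 0.43. Leaving out WT replicate 1 or WT replicate 2 gave the same 1.12.

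*Tspan9*, the tetraspanin, had values of 4 and 14 in WT and of 18 and 11 in Mut. WT replicate 2 was above Mut replicate 2, so that the genotypes overlapped. The means were 9 ± 7.07 (SD, n = 2) and 14.5 ± 4.95 (SD, n = 2), a log2 difference of 0.80 with an SE of 0.59. Without WT replicate 1 it was 0.01. As for *Flt1*, WT replicate 1 held the lowest value.

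*Galnt18*, the GalNAc transferase, had values of 2 and 5 in WT and of 10 and 8 in Mut. Both Mut libraries were above both WT libraries. The means were 3.5 ± 2.12 (SD, n = 2) and 9 ± 1.41 (SD, n = 2), a log2 difference of 1.23 with an SE of 0.64. Without WT replicate 1 the log2 difference was 0.73.

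**Figure D3:**
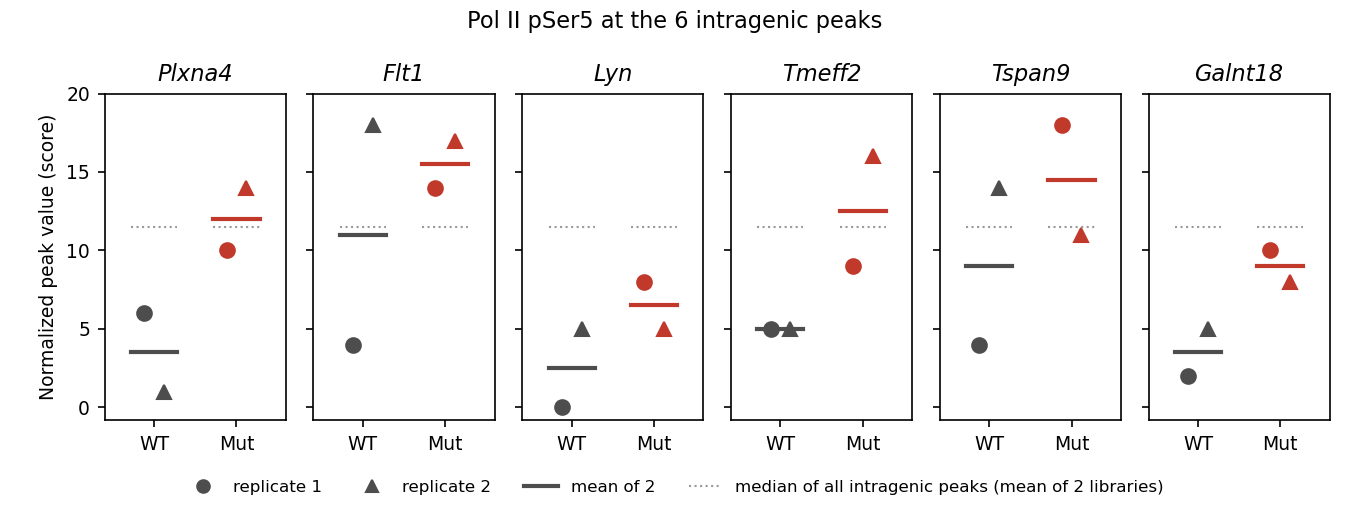
Normalized value of each peak (y axis, score) in the WT (grey) and Mut (red) libraries. Circles are replicate 1, triangles replicate 2 and bars the mean of both libraries. Dotted lines are the mean of the medians of all 230 intragenic peaks in both libraries. Mut lies above WT in all libraries for Plxna4, Tmeff2 and Galnt18, and the genotypes overlap or meet for Flt1, Lyn and Tspan9.

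The genotypes thus did not overlap in 3 of the 6 peaks, with Mut higher. Over all peaks 17.1% were higher in Mut without overlap and 16.6% lower, and over intragenic peaks 22.6% and 14.8%. Over the 12 intragenic peaks of the study's list the shares were 25% and 0%, the 25% being these same 3 peaks. Of the other 6 intragenic peaks of the list, 0 were higher without overlap. Nothing is read from the count of 3, because a higher Mut mean was part of the choice. The median log2 difference was 1.17 over the 6 described peaks and -0.12 over the other 6 intragenic peaks of the list. It was 0.10 over all intragenic peaks and -0.03 over promoter peaks. A log2 difference of at least 1 was found in 4 of the 6 described peaks, in 13.5% of intragenic peaks and in 5.28% of all peaks. The choice by genotype difference bears on these values as well, so nothing is read from them either.

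Values are given here relative to the width of the peaks. They are the values that chose the peaks, so no difference in spread between the genotypes is read from them. In WT the mean value per 100 nt fell in the order *Flt1* (4.98), *Tspan9* (4.02), *Tmeff2* (2.89), *Galnt18* (2.29), *Plxna4* (2.08) and *Lyn* (1.64). The WT libraries of all 6 overlapped on this scale, so that this order was within their spread. In Mut it lay between 6.47 and 7.23 for *Tmeff2*, *Plxna4*, *Flt1* and *Tspan9*, at 5.88 for *Galnt18* and at 4.28 for *Lyn*. Neighbours in this order overlapped too, and only *Plxna4* and *Flt1* had both Mut values above both of those of *Lyn*. By their mean in Mut, the peaks stood between percentile 12.2 (*Lyn*) and percentile 70 (*Flt1*) of all intragenic peaks, and in WT the *Plxna4* and *Galnt18* peaks stood at percentile 5.22 and *Flt1* at 44.3.

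The median difference over the 6 peaks was larger against WT replicate 1 than against WT replicate 2. Added over the 6 peaks, the values were 21 and 48 in WT and 69 and 71 in Mut, so that the WT libraries differed from each other by more than WT replicate 2 differed from either Mut library. WT replicate 1 was the lowest of the 4 libraries in 4 of the 6 peaks, *Flt1*, *Lyn*, *Tspan9* and *Galnt18* (66.7%), in 30.4% of all intragenic peaks and in 21.7% of all peaks. Against WT replicate 1, all 6 peaks were higher in both Mut libraries, with median log2 differences of 1.73 in Mut replicate 1 and 1.54 in Mut replicate 2. Against WT replicate 2, 5 peaks were higher in Mut replicate 1 and *Flt1* was lower, with a median of 0.66. In Mut replicate 2, 3 peaks were higher, *Lyn* was equal and *Flt1* and *Tspan9* were lower, with a median of 0.29. Over all intragenic peaks the same 4 medians were 0.24, 0.17, 0.03 and 0. A higher Mut mean was part of the choice, and such a choice favours peaks with a low value in a WT library. The shares and medians over all intragenic peaks were not chosen this way, so nothing is read from the contrast with them. The part of WT replicate 1 in the choice of the peaks was not tested.

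**Figure D4:**
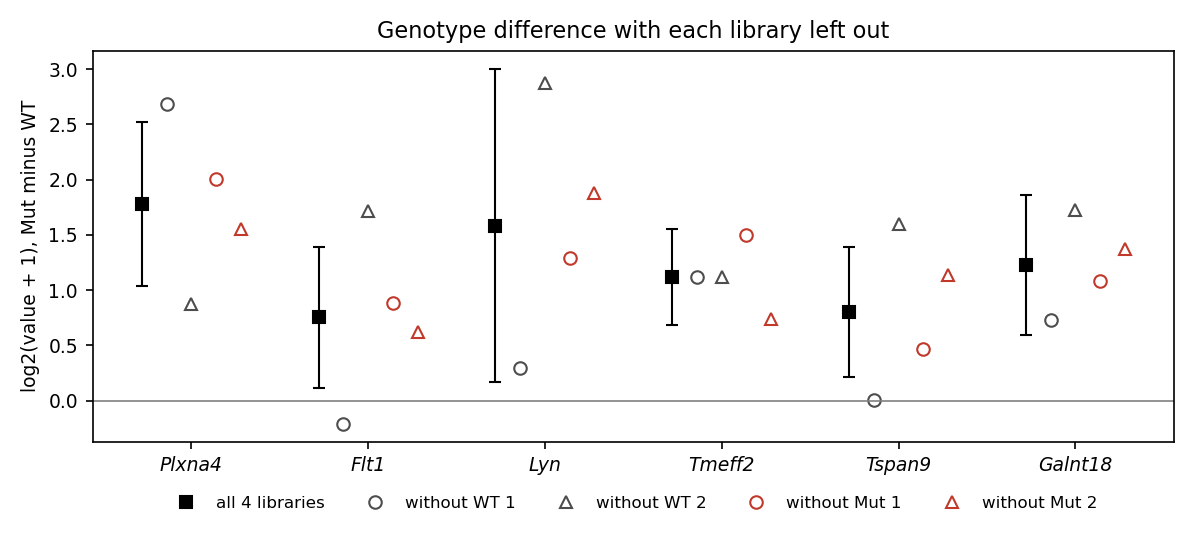
Log2 difference of each peak between genotypes (y axis, Mut minus WT on the log2(value + 1) scale) with all 4 libraries (black square, with the SE of the fit) and with 1 library left out (open circles without replicate 1, triangles without replicate 2, grey for WT and red for Mut). Without WT replicate 1 the difference falls to -0.21 for Flt1, 0.01 for Tspan9 and 0.29 for Lyn, and for Plxna4 it is 2.68.

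The distance between replicates is given as a description. Its median on the log2 scale between the WT replicates was 1.70 over the 6 peaks and 0.54 over intragenic peaks. Between the Mut replicates it was 0.52 and 0.39. These values took part in the choice of the peaks, so no difference in spread is read from them. As a measure of counting error alone, the ratio of estimated reads, corrected for library size, had 95% exact intervals of 1.19 to 6.91 for *Plxna4* (ratio 2.70), 0.863 to 2.95 for *Flt1* (1.57) and 1.07 to 13.7 for *Lyn* (3.33). The intervals were 1.01 to 5.02 for *Tmeff2* (2.16), 1.03 to 3.82 for *Tspan9* (1.94) and 1.14 to 8.81 for *Galnt18* (2.91). These intervals leave out the spread between libraries, which for *Flt1* ran from 4 to 14 reads in WT and from 14 to 20 in Mut. A higher Mut mean was part of the choice of the peaks, so the intervals are no test of a genotype difference.

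The genes chosen and those passed over on the same list set the limit of the choice. Of the 515 genes of the list, 32 had an assigned peak, and 11 of them had 12 peaks more than 5000 nt from the start. The mean was higher in Mut in 9 of these 12 peaks (75%), beside 53.5% of all intragenic peaks and 45.9% of all peaks. The study took stronger Pol II entry into gene bodies of the mutant as a criterion for its list, so that nothing is read from this share. Besides the 6, these were peaks of *Ankrd44*, *Ldlrad4* and *Ehd4*, with log2 differences of 0.24, 0.10 and 0.06 and with overlapping genotypes. The smallest log2 difference among the 6 was that of *Flt1*, 0.75. The 3 peaks with a lower mean in Mut were the pair in *Ppcdc* and the one in *Irf2*. By distance, the *Tspan9* peak was the nearest to its start of the 6, and the nearest peak of the list inside 5000 nt was that of *Arap2* at 3518 nt, with values of 4 and 3 in WT and 9 and 7 in Mut.

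The base composition was not used to choose the peaks. GC content was 54.9% in the *Tspan9* peak, 54.8% in *Plxna4*, 49.7% in *Galnt18*, 49.3% in *Lyn*, 44.3% in *Flt1* and 32.9% in *Tmeff2*. All 6 were below the median of all intragenic peaks, 56.8%, and below that of promoter peaks, 68.8%. The other 6 intragenic peaks of the study's list had close values, with a median GC content of 48.2% against 49.5% over the described peaks, and a median CpG ratio of 0.162 against 0.174. The observed number of CpG relative to that expected from the C and G content was 0.762 in *Flt1*, 0.397 in *Plxna4*, 0.240 in *Tspan9* and 0.108 in *Lyn*, and 0 in *Tmeff2* and *Galnt18*. The median was 0.385 over intragenic and 0.957 over promoter peaks. *Tmeff2* and *Galnt18* were 2 of 6 peaks without any CpG, a state found in 10.4% of intragenic and 0.178% of promoter peaks. In a window of 300 nt around the centre the ratio was 0.188 in *Tmeff2* and 0.0978 in *Galnt18*, so that CpG occurred next to both peaks.

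**Figure D5:**
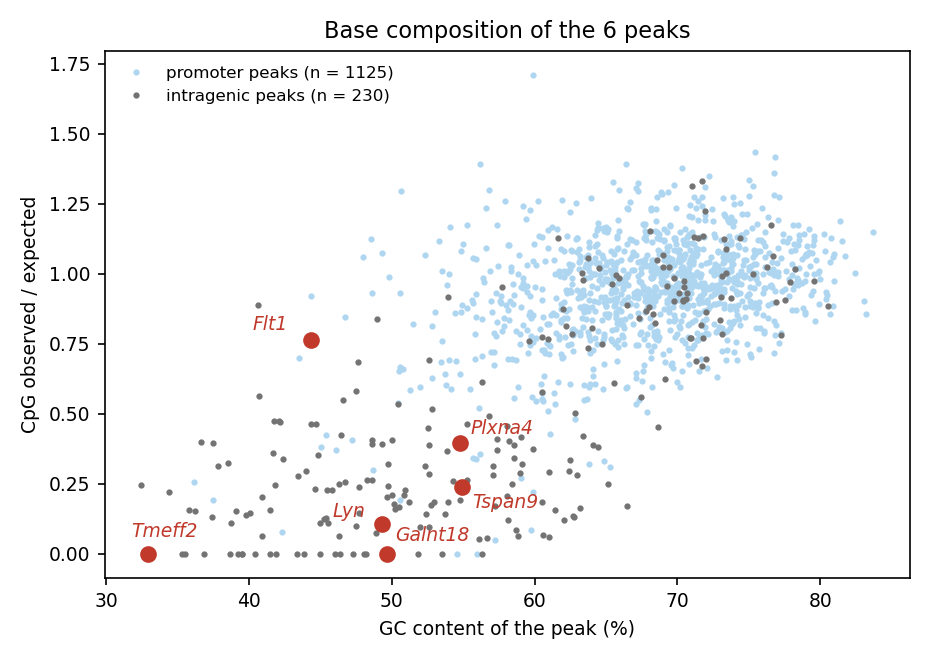
Ratio of observed to expected CpG (y axis) against GC content in percent (x axis) for the 1125 promoter peaks (light blue), the 230 intragenic peaks (grey) and the 6 peaks (red, named), which are part of the intragenic peaks. The 6 peaks lie at 32.9% to 54.9% GC and, except Flt1 at 0.762, at a ratio of 0.397 or less, away from most promoter peaks.

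Promoter regions of 3 of the 6 genes, *Flt1*, *Tmeff2* and *Tspan9*, were found in the RefSeq promoter table (300 bases around a start, most of them upstream). Their main start regions were rich in CpG. The ratio of observed to expected CpG was 0.780 in *Flt1*, 0.703 in *Tmeff2* and 0.739 in *Tspan9*, against a median of 0.384 over 32851 promoters. The *Tspan9* start that lay inside the peak had a ratio of 0.199, with 5 CpG in the 300 bases. The peaks of *Tmeff2* and *Tspan9* were thus poorer in CpG than the main promoters of their genes. For *Flt1* only the ratio of the peak, 0.762, was close to that of its promoter. The *Flt1* peak held 8 CpG in 221 bases at 44.3% GC, and the promoter region 29 in 300 bases at 70.7% GC.

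Short motifs were counted in 200 nt around each peak centre, on both strands. GGAA, the core of ETS sites, was found in 6 of the 6 windows and in 95.7% of intragenic and 91.9% of all peaks. CANNTG, the E-box, was found in 4 of the 6, *Plxna4*, *Lyn*, *Tmeff2* and *Galnt18*, and in 55.7% of intragenic peaks. TATAAA was found only in the *Tmeff2* window among the 6, as was TGANTCA, the AP-1 site, against 6.96% and 7.83% of intragenic peaks. GGGCGG, the Sp1 site, was in none of the 6 windows, in 23.0% of intragenic and in 54.1% of all peaks. The CArG box, bound by the serum response factor in smooth muscle genes, was in none of the 6 and in 0 of the 230 intragenic peaks. These motifs are short and the windows few, and a match is no evidence of a bound factor. Repeat-masked bases made up 0 (*Tspan9*) to 27.6% (*Lyn*) of the peaks. Of the *Flt1* peak 19.5% was masked, and how much of this lay in its tandem repeat was not examined.

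Other genes of the same pathways with a peak are given here. In the whole series 1312 genes had an assigned peak. The counts include the described genes and stand without a share over all annotated genes, so nothing is read from their size. Of 35 genes of semaphorin–plexin signalling, 2 had an assigned peak, *Plxna4* and the co-receptor *Nrp2*, with *Nrp2* promoter values of 12 and 4 in WT and 11 and 10 in Mut. Of 10 VEGF ligands and receptors, the same *Nrp2* and *Flt1* had one, and *Vegfa*, *Kdr* and *Flt4* had none. Of 17 Src family kinases and regulators, *Lyn* and *Yes1* had one, with *Yes1* promoter values of 7 and 4 in WT and 10 and 10 in Mut. Of the 18 receptors of the EGF, activin and TGF-β families with the tomoregulins, *Tmeff2* and *Tgfbr2* had one, with *Tgfbr2* promoter values of 12 and 13 in WT and 12 and 11 in Mut. These values overlapped between genotypes for *Nrp2* and *Tgfbr2* but not for *Yes1*. Among 27 tetraspanins *Tspan9* was the only one with an assigned peak. Further peaks of these lists lay in or next to a gene without being assigned to it. One at *Cd81* had values of 5 and 5 in WT and of 10 and 14 in Mut, higher without overlap. One at *Erbb3* had values of 9 and 14 in WT and of 6 and 8 in Mut, lower without overlap. One at *Dpysl2*, assigned to a neighbouring gene, had values of 14 and 16 in WT and of 15 and 7 in Mut, with overlap. Among 19 GalNAc transferases, *Galnt18* and *Galnt2* had assigned peaks, but the 8 peaks named *Galnt2* carry the identifier of a read-through gene of 4434882 nt and lie outside *Galnt2*. None of these other peaks was called by limma after adjustment.

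The label of the sorted cells could not be checked from their markers. None of 10 smooth muscle markers, among them *Acta2* and *Myh11*, had a peak, nor did any of 8 endothelial, 7 epithelial and 7 fibroblast or pericyte markers. Of 9 haematopoietic markers, none had an assigned peak, and that at *Cd68* was assigned to the neighbouring gene *Mpdu1*, with values of 9 and 10 in WT and 6 and 10 in Mut. *Lyn* is expressed mainly in haematopoietic cells and *Flt1* in endothelial cells, as background. Whether such cells added to the peaks of *Lyn* and *Flt1* was not tested, and in sorted bulk cells a rise in their number cannot be told apart from more polymerase per cell.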

How the data were processed

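The data were Pol II pSer5 ChIP–seq libraries of DRB-treated lung SMCs, 2 of WT and 2 of Mut, grouped by sample title; the 4 input samples have no values here. According to the methods and the submitters' processing notes, the authors trimmed reads (the notes name Trimmomatic 0.36, the methods Reaper), removed duplicates with Picard 2.17.10, called peaks per library with MACS2, unified them, subtracted input, recounted reads and normalized them with DESeq2. The aligner is not given in the sources used here. The build is mm10 (GRCm38). The deposited value is a score (reads after normalization, which the authors rounded), not a raw count. Other deposited columns used here, computed by the authors, are the distance from each peak centre to the assigned start and the fraction of the peak inside the gene. The table holds the authors' genotype means too, which were not used.

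The design allowed for raw or normalized input. Because normalized data were found, limma 3.58.1 under R 4.3.3 (eBayes with an intensity trend) was run on log2(value + 1) over all 1761 peaks without a filter, calls being made at a Benjamini–Hochberg adjusted p under 0.05. Promoter peaks were those within 5000 nt of the start of the assigned gene. Reads were estimated by dividing each value by the step of its library (0.690 to 1.25), for counting error only. If input was subtracted from the values, the estimates are not read numbers and the intervals have no counting basis. PCR reads without molecular identifiers are not independent molecules, so that intervals cover counting error only. Transcript starts came from GENCODE M21 and RefSeq GRCm38.p6, sequences from the RefSeq genome (pysam 0.24.0), and copies from blastn 2.17.0. limma and the quasi-Poisson alternative were first tried on simulated peaks with known changes and with counting noise alone. Those changes were larger than the described differences, and the estimated reads had an overdispersion of 1.30. The trial therefore does not show that changes of the described size would be called. Calculations used Python 3.11.15, numpy 2.4.6, scipy 1.17.1 and pandas 2.3.3, and figures matplotlib 3.10.9.

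The members and gene lists were chosen with earlier results of these data known. Genes named besides the 6 were those of the study's list with an intragenic peak or next to the distance limit, list genes with a peak, and for each of the 6 the peak with the smallest Euclidean distance over the 4 libraries. *Vegfa*, *Kdr*, *Flt4*, *Acta2* and *Myh11* were named after their lack of a peak was seen. The alternatives covered the pseudocount (0.1 and 10), quantile normalization, scaling by library total, the upper 75% of peaks, a replicate block, a quasi-Poisson test, each library left out, the distance limit, and the annotation. RefSeq starts, and limits of 200 and 1000 nt around a start, were chosen after seeing the data.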

Additional observations from a re-analysis of the deposited data

How the results depend on the processing

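Between genotypes, limma called 0 of 1761 peaks at the main setting (127 at an unadjusted p under 0.05), 6 when each library was scaled to its total, and 5 by the quasi-Poisson test on reads. None of the 6 described peaks was among them. Peaks higher in Mut without overlap numbered 302 of 1761, and 192 of 1333 among the upper 75% of peaks. They numbered 351 after quantile normalization and 372 after scaling by library total. With 1 library left out they numbered 535 to 561, where 1 library of a genotype stands against 2. Of 60 alternative values of the 6 log2 differences, 59 had the same sign, within a range of -0.21 to 3.17. The exception was *Flt1*, which ran from -0.21 (without WT replicate 1) to 1.72 (without WT replicate 2). The median of the 6 differences was 0.51 to 1.66 with 1 library left out and 0.46 with a pseudocount of 10, against 1.17. *Flt1*, *Tspan9* and *Lyn* rest on WT replicate 1 and have little or no difference without it, and *Plxna4* falls to 0.88 without WT replicate 2. The cause was not tested. Replicate numbers are shared between genotypes but nothing states a pairing, and deviations of same-numbered libraries correlated at -0.074 over peaks. With a replicate block limma called 0 peaks (74 at an unadjusted p under 0.05), and the 6 differences were the same. Measured to any GENCODE start, the distance of the *Plxna4* peak was 65.5 nt in place of 77053 nt. Of the list's intragenic peaks, 9 had a higher Mut mean beyond 5000 nt, 11 beyond 1000 nt and 9 beyond 10000 nt. Depth limits every value, since a value of 5 in a WT library stands for 4 to 6 reads.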

Other observations

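For each described peak, the most similar other peak assigned to a gene is given here. By Euclidean distance over the 4 libraries on the log2(value + 1) scale, the peak most like that of *Plxna4* was an intragenic peak of *Lrrc8a*, with values of 5 and 1 in WT and 10 and 13 in Mut (distance 0.24). The peak most like that of *Flt1* was an intragenic one of *Nfkbiz* (5 and 21, then 17 and 19; distance 0.45). For *Lyn* it was an intragenic peak of *Crim1* (0 and 3, then 8 and 8; 0.83), and for *Tspan9* one of *Bcl2l1* (5 and 11, then 15 and 11; 0.48). The nearest to *Tmeff2* and *Galnt18* were promoter peaks, of *Vapb* (5 and 6, then 12 and 18; 0.47) and of *Tgfbrap1* (3 and 6, then 11 and 7; 0.52). *Vapb* and *Tgfbrap1* show that values like those of *Tmeff2* and *Galnt18* also occurred at annotated starts.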
